A study of Linum usitatissimum with 8 samples.

Results

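The count table of developing flax seed (Linum usitatissimum) holds 2212 gene models whose ID carries the word newGene, taken here as models that the authors added to the annotation. These stand beside 38306 annotated genes, which gives 40518 genes in all. The 150 added models described here are those with the highest level at any stage. For each model, CPM (the count per 1000000 counts of its library) were averaged over the libraries of each stage. The models were then ranked by the highest of the stage means. Ranking on these values means that the levels and stage profiles of the 150 are a description, and no test between stages is printed for a single model. Counts of members that passed such a test are given only beside the share of all genes that did. IDs are given without their shared prefix Linumusitatissimum.

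Seeds of the cultivar Heiya No.14 were sampled at 4 stages that the labels name DAP5, DAP10, DAP20 and DAP30 without spelling the letters out, and each stage has 2 libraries made from total RNA. No treatment, mutant or second cultivar is labelled, so stage is the only labelled difference between the groups. Whether replicates are from different plants is not labelled, and each p-value below sets stages against a spread of libraries that may be technical alone. Library totals lay between 12951493 and 27691831 counts. The RNA is from bulk seed, where fewer cells of a type and less RNA per cell cannot be told apart. The table pairs no ID with a gene name, a function or a position, so the tissue could not be checked against marker genes, and no sequence of an added model was used here.

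As background, a flax seed first builds its embryo, endosperm and seed coat through cell division and expansion. It then fills with oil and storage protein, with linseed known for oil rich in the omega-3 fatty acid alpha-linolenic acid, and it loses water as it ripens. A small number of storage and late-embryogenesis transcripts usually make up much of the RNA of a filling seed. A gene model missing from a first annotation can be a protein-coding gene that was overlooked, a non-coding RNA, an extension of a neighbouring gene or a transcribed repeat. Which of these an added model is cannot be read from a count.

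Added models took a small share of the counts at every stage, and that share was lowest at DAP5. They held 1.31% and 1.5% of the library counts at DAP5 and 2.68% and 3.03% at DAP10, then 2.91% and 2.19% at DAP20 and finally 3.41% and 3.53% at DAP30. Both DAP5 libraries were below all 6 later ones, and both DAP30 libraries were above all others, while DAP10 and DAP20 overlapped. The mean share at DAP30, 3.47% ± 0.0816, was 2.47 times that of DAP5, 1.41% ± 0.139 (SD, n = 2). Because this share covers every added model, it does not rest on the ranking and could be tested. An exact permutation test over all divisions of the libraries into 4 pairs asked, one-sided, whether the libraries of each stage lie closer together than other pairs do, whatever the order of the stages. The exact p was 0.0190 (adjusted p = 0.0429 over 3 measures), where 0.00952 is the smallest that such divisions can give. Without DAP30 replicate 1 the exact p was 0.0571, and without DAP30 replicate 2 it was 0.0762. Divided by the deposited gene length, the added models held 1.99% ± 0.187 of the summed CPM per kilobase at DAP5 and 5.10% ± 0.0156 at DAP30 (SD, n = 2).

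Most of these counts belonged to the 150 members, and 5 of them held most of the difference between DAP5 and DAP30. The members held 80.1% ± 0.852 of the added-model counts at DAP5 and 91.7% ± 0.787 at DAP10, then 91.2% ± 2.61 at DAP20 and 93.3% ± 0.646 at DAP30 (SD, n = 2). The other 2062 added models together held 0.279% ± 0.0156 of the library counts at DAP5 and 0.233% ± 0.0169 at DAP30 (SD, n = 2). The 5 leading members alone held 36.2% ± 2.60 of the added-model counts at DAP5 and 55.3% ± 0.0277 at DAP10, then 63.9% ± 8.23 at DAP20 and 66.6% ± 0.0797 at DAP30 (SD, n = 2). Of the library counts they held 0.507% ± 0.0137 at DAP5 and 2.31% ± 0.0572 at DAP30 (SD, n = 2), 4.56 times as much. With these 5 left out, the remaining added models held 0.898% ± 0.125, 1.27% ± 0.11, 0.901% ± 0.0259 and 1.16% ± 0.0245 at the 4 stages in order (SD, n = 2). The 5 leading members held 1.48% and 1.68% at DAP10 and 2.03% and 1.27% at DAP20, so that their DAP20 replicates lay on both sides of DAP10. All other added models held 1.20% and 1.35% at DAP10 and less in both DAP20 libraries, 0.882% and 0.919%.

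**Figure D1:**
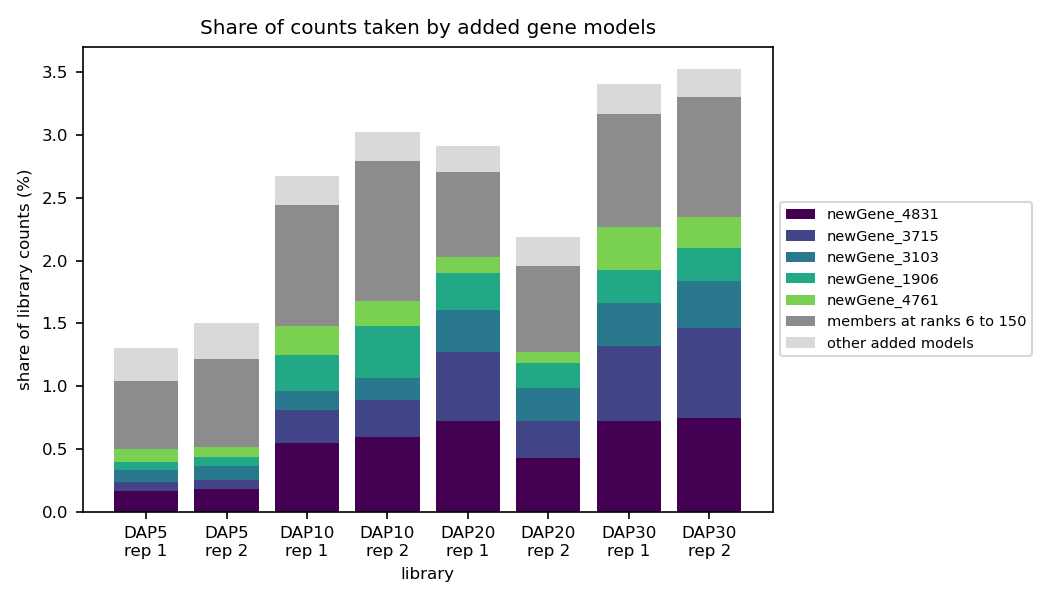
The bars give the percentage of all counts of each library (8 bars, 2 replicates for each of 4 stages) that fell on added gene models, split into the 5 leading models, the other members and the remaining added models. The total runs from 1.31% to 3.53%, and the coloured part, the 5 leading models, grows from 0.497% and 0.517% at DAP5 to 2.27% and 2.35% at DAP30.

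The number of models behind the share was small in every library. To reach 50% of the added-model counts took 10 and 11 models in the DAP5 libraries, 5 models in both DAP10 libraries, and 3 or 4 models in each library of DAP20 and DAP30. The effective number of added models, the exponential of the Shannon entropy of their shares, was 115 ± 2.72 at DAP5 and 35.6 ± 3.29 at DAP10, then 31.8 ± 12.4 at DAP20 and 24.6 ± 1.71 at DAP30 (SD, n = 2). The exact permutation p was 0.0857 (adjusted p = 0.0857). That p misses the threshold, and the DAP20 replicates, at 23.0 and 40.5, lay on both sides of the DAP10 libraries, whereas without either of them p was 0.0190. Added models at 1 CPM or more numbered 766 ± 34.6 at DAP5 and 712 ± 4.24 at DAP10, then 650.5 ± 19.1 at DAP20 and 652 ± 26.9 at DAP30 (SD, n = 2). Their exact permutation p was 0.0286 (adjusted p = 0.0429). Without DAP5 replicate 2, DAP10 replicate 1, DAP10 replicate 2 or DAP20 replicate 2 that p was 0.0571, 0.0667, 0.0857 and 0.0571. The direction depends on the scaling, since at 1 CPM scaled by TMM (effective library sizes) the means ran the other way, from 648 at DAP5 through 676 and 711 to 742 at DAP30 (exact permutation p = 0.0190).

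The members spanned a wide range of levels. The highest stage mean was 1000 CPM or more for 8 members, 100 to 1000 CPM for 24, 50 to 100 CPM for 17 and below 50 CPM for 101, with a median of 33.1 CPM. Over all added models the median was 0.859 CPM. The last members were newGene_2310 and newGene_3700, both at 16.4 CPM, and the first models outside were newGene_2322 at 16.4 and newGene_3635 at 16.1 CPM, so that the limit cuts through a continuous range. Of the annotated genes, 15568 had a highest stage mean at or above that of the last member.

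The most abundant added model in all 8 libraries was newGene_4831, a model of 1177 bases that ranked 12 among all genes of the table by highest stage mean. It stood at 1644 and 1822 CPM at DAP5 and 5438 and 5985 at DAP10, followed by 7199 and 4296 at DAP20 and 7260.4 and 7444 at DAP30. All 6 later libraries were above both of DAP5, and the DAP20 replicates lay on both sides of DAP10. It alone held between 12.1% and 24.7% of the added-model counts of a library.

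The second was newGene_3715, of 898 bases, at 749.8 and 719 CPM at DAP5 and 2653 and 2952 at DAP10, then 5548 and 2893 at DAP20 and 5910.5 and 7201 at DAP30. Its mean was higher at each stage than at the one before, from 734 to 6556 CPM, an 8.93-fold range, and both DAP30 libraries were above the other 6. Per kilobase of deposited length it was the highest of all members, at 7301 CPM per kilobase at its highest stage, ahead of newGene_4831 at 6246, newGene_4761 at 3448 and newGene_1906 at 2700.4.

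The third, newGene_3103, of 1430 bases, stood at 932 and 1116 CPM at DAP5 and 1560.1 and 1694 at DAP10, then 3331 and 2638 at DAP20 and 3499 and 3739.9 at DAP30. Its 4 pairs of libraries did not overlap and stood in the order of the stages. The fourth, newGene_1906, of 1290 bases, had its highest mean at DAP10, with 597 and 662 CPM at DAP5 and 2842 and 4125 at DAP10, followed by 2981 and 2019 at DAP20 and 2596 and 2647 at DAP30. The DAP20 libraries overlapped those of DAP10 and of DAP30, while both DAP10 libraries were above both of DAP30 and DAP5 stood apart. Its peak depends on the scaling, since its mean under TMM was 3190.2 CPM at DAP10 and 3381 at DAP30.

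The fifth, newGene_4761, of 860 bases, differed from the other leading models in being low again at DAP20. It stood at 1051 and 849.6 CPM at DAP5 and 2317 and 1999 at DAP10, then 1240.4 and 874 at DAP20 and 3445 and 2486 at DAP30, so that DAP5 and DAP20 overlapped. All 5 leading models were higher in DAP20 replicate 1 than in replicate 2, against 77 of the 150 members. Together these 5 held 2.03% and 1.27% of the counts of DAP20 replicates 1 and 2, while the members from rank 6 on held 0.681% and 0.686%.

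**Figure D2:**
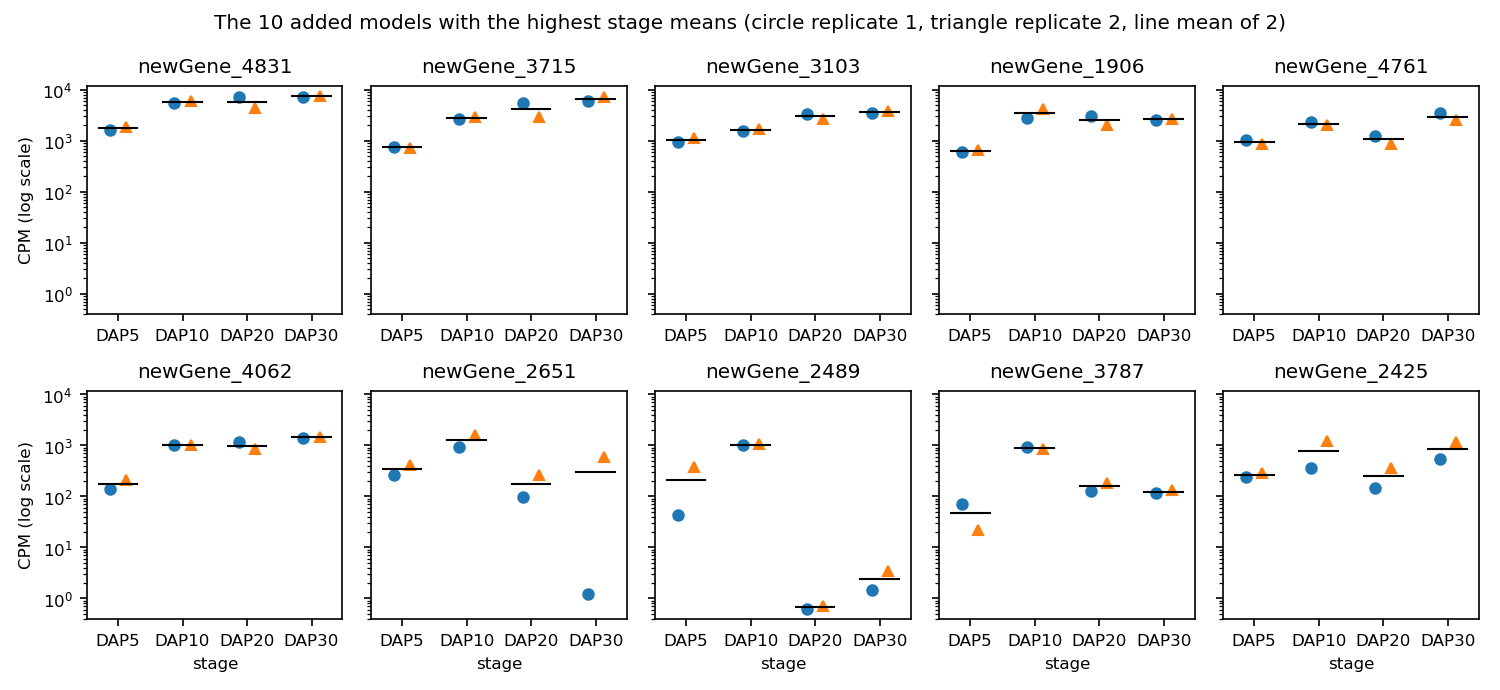
Each panel gives one of the 10 added models with the highest stage means, with CPM on a log scale against stage, replicate 1 as a circle, replicate 2 as a triangle and the mean of both as a line. The first 6 are lowest at DAP5 and stay above 100 CPM, newGene_2489 is near 1 CPM from DAP20 on, and newGene_2651 is split at DAP30 into 1.23 and 606 CPM.

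Several members had profiles close to that of newGene_4831. Across the 8 libraries, which include the stage differences themselves, the Pearson correlation of log2(CPM + 1) with newGene_4831 was 0.995 for newGene_3852, 0.988 for newGene_4062 and 0.98 for newGene_2292, while the median over all pairs of members was 0.003. The sixth member, newGene_4062, of 1682 bases, stood at 138 and 207 CPM at DAP5 and 1013 and 1025 at DAP10, then 1146 and 835 at DAP20 and 1397 and 1488 at DAP30. Like newGene_4831 it was lowest at DAP5 and, under library totals, about level between DAP10 and DAP20. Under TMM the means of both rose from DAP10 to DAP20, from 933 to 1189.6 CPM for newGene_4062 and from 5232 to 6899 for newGene_4831. The values of newGene_3852, of 627 bases, were 133 and 156 CPM at DAP5, 534 in both libraries of DAP10, then 623 and 340.5 at DAP20 and 651 and 624 at DAP30. Those of newGene_2292, a longer model of 4440 bases, were 176 and 202 at DAP5 and 486 and 631 at DAP10, followed by 525 and 459 at DAP20 and 613 and 659 at DAP30.

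Most members had their highest mean at the first or the last stage. Of the 150, 46 (30.7%) were highest at DAP5 and 52 (34.7%) at DAP30, with 30 (20%) at DAP10 and 22 (14.7%) at DAP20. Among the 15568 annotated genes of at least that level, 49.8% were highest at DAP5 and 24.1% at DAP30, with 15.2% at DAP10 and 10.9% at DAP20 and no test of the difference because the ranking used these values. Scaling matters here. TMM, which scales libraries on the assumption that most genes do not change, moved the median log2 fold change over all genes between DAP5 and DAP30 from -1.11 under library totals to -0.241. In the TMM fit described below, 70.2% of all genes were called between these stages. The assumption may therefore not hold here, and neither scaling is taken as the right one. Under TMM, 129 of the 150 kept their peak stage, and the groups were 31, 31, 29 and 59.

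Most members were present at several stages. In 44 members (29.3%) the lowest stage mean was at least 1/3 of the highest, and in 5 (3.33%) every other stage mean was below 1/10 of it. The remaining 101 lay in between. Among the 15568 annotated genes of at least the members' level, the first 2 shares were 44.9% and 2.16%. A stage mean below 1 CPM was found at no stage for 120 members, at DAP5 for 12, at DAP30 for 16, and at both DAP20 and DAP30 for 7. Both libraries of the peak stage were above all 6 others for 101 members (67.3%), near the 69.4% of all 28749 genes kept for testing. For annotated genes of at least the members' level it was 75.5%. These differences were not tested, because the ranking used these values.

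**Figure D3:**
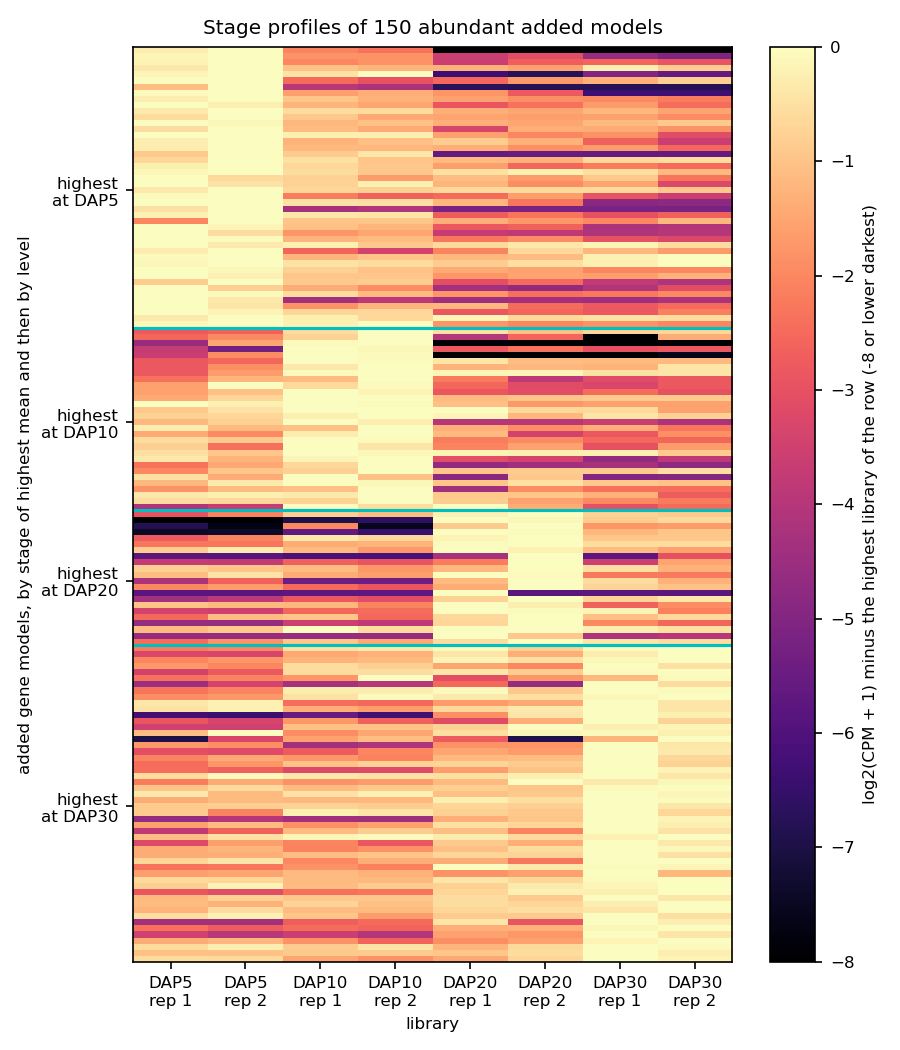
Each row is one of the 150 members, grouped by the stage of its highest mean and ordered by level within a group, and each column is a library. The colour is log2(CPM + 1) relative to the highest library of the row, so that pale cells are near the maximum of the row and the darkest cells are 8 or more log2 units below it. Most rows stay pale or orange in all 8 columns, and dark stretches are few and lie mainly after DAP10 in models highest at DAP5 or DAP10 and before DAP20 in those highest at DAP20.

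Among the 46 members highest at DAP5, the leading one was newGene_5396, of 1348 bases. Its values were 457 and 559 CPM at DAP5 and 135 and 111 at DAP10, then 0.405 and 0.154 at DAP20 and 0.0472 and 0 at DAP30. Those of DAP30 are 1 count and no count, while the DAP5 libraries held 12110 and 15492 counts, so that the stages did not overlap and the model was all but gone by DAP20. The stages of newGene_3059, of 5181 bases, stood closer together, with 313 and 342 CPM at DAP5 and 98.2 and 97.6 at DAP10, then 27.8 and 38.9 at DAP20 and 13.2 and 9.35 at DAP30, again without overlap. Its profile was matched most closely by newGene_3020, with a correlation of 0.999 over the 8 libraries at 26.6 CPM in place of 327 at DAP5.

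The third of this group, newGene_3074, was at 194 and 218 CPM at DAP5 and 53.7 and 60.1 at DAP10, followed by 17.5 and 32.7 at DAP20 and 35.6 and 27.8 at DAP30, low and overlapping at the last stages. The fourth, newGene_5254, is the longest of the added models at 11084 bases and was broadly used, with 129 and 165 CPM at DAP5 and 81.1 and 69.7 at DAP10, then 65.9 and 56.0 at DAP20 and 138 and 92.4 at DAP30. Its peak depends on the scaling, since under TMM its highest mean was at DAP30. The members with the lowest ratio of DAP30 to DAP5, taken with 1 CPM added, also include newGene_3979, newGene_1737 and newGene_2489. The first had 1348 and 2987 counts at DAP5, then 92 and 65 at DAP10, 1 and 0 at DAP20 and none at DAP30. The second had 75.4 and 78.8 CPM at DAP5, then 24.9 and 30.4 at DAP10 before 22.4 and 10.4 at DAP20, and no count at DAP30.

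The 30 members highest at DAP10 included models that were far lower at DAP20, though in none was every other stage mean below 1/10 of the highest. Besides newGene_1906, newGene_2489 of 1222 bases stood at 44.1 and 377 CPM at DAP5 and 1017 and 1068 at DAP10, then 0.63 and 0.718 at DAP20 and 1.46 and 3.44 at DAP30. The DAP10 libraries agree closely, the DAP5 libraries differ widely, and the level at DAP20 was a small remnant of that at DAP10. A nearly identical profile, with a correlation of 0.997, belonged to newGene_1480, with 32.8 and 112 CPM at DAP5, 424 and 403 at DAP10, and 1 count in each DAP20 library. In newGene_3787, of 1254 bases, the peak was followed by a lower but steady level, with 70.2 and 22.5 CPM at DAP5 and 935 and 871 at DAP10, followed by 130.4 and 185 at DAP20 and 116 and 132 at DAP30.

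The seventh of all members, newGene_2651 of 2434 bases, was also highest at DAP10, at 942 and 1578 CPM, against 269 and 406 at DAP5, 96.5 and 261 at DAP20, and 1.23 and 606 at DAP30. Replicate 2 was the higher one at all 4 stages, and the DAP30 libraries were too far apart to place that stage. The last of the group among the 20 highest members, newGene_5586, was at 35.2 and 42.7 CPM at DAP5 and 257 and 246 at DAP10, then 193 and 122 at DAP20 and 115 and 113 at DAP30.

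The 22 members highest at DAP20 were led by newGene_5279, of 2662 bases. At DAP5 its mean was 81.7 CPM ± 33.5 (SD, n = 2), with 58.0 CPM in replicate 1. It stood at 259.9 and 211 CPM at DAP10, then 388 and 451 at DAP20 and 269.8 and 250.3 at DAP30. Present at every stage, it differed in this from the next ones, which were almost absent early. For newGene_2629, of 330 bases, the DAP5 libraries held 2 counts each, and the levels were 1.25 and 1.78 CPM at DAP10, then 275 and 255 at DAP20 and 156 and 181 at DAP30. For newGene_2630, of 686 bases, the DAP5 libraries held 0 and 1 counts, and the levels were 2.44 and 0.927 CPM at DAP10, then 169 and 162 at DAP20 and 72.6 and 87.1 at DAP30. These models carry consecutive numbers and had a correlation of 0.994.

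Consecutive numbers did not always go with like profiles, and the pairs are too few for a general statement. Of the 5 such pairs among the members, newGene_2404 and newGene_2405 had a correlation of 0.906 and newGene_3128 and newGene_3129 one of 0.636. The pair newGene_4281 and newGene_4282 had -0.805, and newGene_4712 and newGene_4713 had -0.622. None of the sources used here says what the numbers stand for, or whether such pairs are neighbours or parts of 1 transcript.

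The third highest of the DAP20 group, newGene_1996 of 1672 bases, had 24 and 1 counts at DAP5 and reached 118 and 217 CPM at DAP20 and 65.2 and 66.9 at DAP30. In between, its DAP10 libraries disagreed completely, with 818 counts in replicate 1 and 2 in replicate 2. Among the members highest at DAP30, newGene_2142 of 1084 bases was also nearly absent early, at 1.06 and 0.831 CPM at DAP5 and 2.44 and 1 at DAP10, against 42.1 and 114 at DAP20 and 154 and 130.5 at DAP30. The 52 members of that group otherwise include 4 of the 5 leading models.

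Further members highest at DAP30 among the 20 most abundant were newGene_2425, newGene_4195 and newGene_3573. For newGene_2425, of 975 bases, replicate 2 was the higher one throughout, with 239 and 294 CPM at DAP5 and 359.7 and 1231 at DAP10, followed by 147 and 364 at DAP20 and 542 and 1175 at DAP30, and the stages overlapped. The values of newGene_4195, of 8864 bases, were 43.8 and 93.7 at DAP5 and 51.4 and 64.1 at DAP10, then 176 and 39.8 at DAP20 and 1002 and 682 at DAP30, so that it stood apart at the last stage only. The profile of newGene_3573, of 2791 bases, had a dip, with 335 and 379 CPM at DAP5 and 80.9 and 75.4 at DAP10, then 137 and 160.0 at DAP20 and 438 and 324 at DAP30.

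The steadiest members were far less abundant. The ratio of the highest to the lowest stage mean was 1.17 for newGene_3722, 1.30 for newGene_4350, 1.31 for newGene_2276 and 1.53 for newGene_1248. The levels of newGene_3722 lay between 46.1 and 69.6 CPM in all 8 libraries. This steadiness is one of library totals, since under TMM its mean at DAP30 was 2.01 times that at DAP5, and for the next 3 members in the same order the factor was 1.41, 1.60 and 1.20.

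A fit across all genes gives the number of members called between stages. The edgeR quasi-likelihood test covered 28749 genes at a false discovery rate (FDR, Benjamini-Hochberg over all of them) below 0.05, and all but 1 of the 150 members passed its filter on low counts. Since the members were picked on their highest stage mean, the counts are printed beside the share of all genes, and nothing is read from the difference. Across the 4 stages 128 members were called (85.9% of those tested), against 79.0% of all genes. Of the 1295 added models tested, 50.8% were called.

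From DAP5 to DAP10, 61 members were called, where 23.6% of all genes were. Of these, 42 were higher at DAP10 (12.4% of all genes) and 19 lower (11.2% of all genes). The median log2 fold change was 0.29 over the members and -0.015 over all genes. These shares and medians are of the TMM fit, and under library totals the median over all genes was -0.395. Without DAP10 replicate 1 or replicate 2 the number called was 32 and 30, and under library totals 30 were higher and 35 lower.

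From DAP10 to DAP20, 83 members were called, where 53.3% of all genes were, with 53 higher at DAP20 (25.5% of all genes) and 30 lower (27.8% of all genes). The median log2 fold change was 0.23 over the members and -0.0322 over all genes. Here too the shares and medians are of the TMM fit, and under library totals the median over all genes was -0.425. Without DAP10 replicate 2 the number called was 54, and under library totals 36 were higher and 39 lower.

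From DAP20 to DAP30, 47 members were called, where 32.5% of all genes were, with 29 higher at DAP30 (15.1% of all genes) and 18 lower (17.4% of all genes). The median log2 fold change was 0.26 over the members and -0.0407 over all genes. Without DAP30 replicate 1 the number called was 26, with 11 higher and 15 lower, so that the balance of directions turned. Without DAP30 replicate 2 it was 28, with 17 higher and 11 lower.

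Over the whole span from DAP5 to DAP30, 118 members were called, where 70.2% of all genes were, with 79 higher at DAP30 (31.3% of all genes) and 39 lower (38.9% of all genes). The median log2 fold change was 1 over the members and -0.241 over all genes. Under library totals 58 were higher and 52 lower, where the median over all genes was -1.11. The shares of all genes above are of the TMM fit and do not apply to that split. In the libraries themselves, scaled by totals, both DAP30 values were above both DAP5 values for 72 members and below both for 58. The same counts over all genes are not given here, so nothing is read from that balance.

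Some members differed widely between the replicates of a stage. With 1 CPM added to each value, the replicates were 4-fold or more apart at 1 stage or more in 13 of the 150 members (8.67%) and in 409 of the 15568 annotated genes of at least their level (2.63%). A 10-fold distance was found in 6 members (4.00%) and in 0.674% of these annotated genes. The difference between these shares was not tested. By stage, 9 members were 4-fold or more apart at DAP20, against 3 at DAP5, 1 at DAP10 and 3 at DAP30. The annotated genes of at least their level were also most often apart at DAP20. There 276 of them were, against 124 at DAP5, 18 at DAP10 and 13 at DAP30, so the excess at DAP20 is not particular to the members.

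The extreme case was newGene_2300, of 3006 bases, with 1252 counts in DAP20 replicate 1 and exactly 1 count in each of the other 7 libraries. It entered the 150 through that library alone and is the member that the filter on low counts removed. In newGene_3712, of 776 bases, DAP20 replicate 2 held 1366 counts and replicate 1 held 59, with 8 and 7 at DAP5, none at DAP10, and 7 and 132 at DAP30. At their peak stage, replicates were also 4.84-fold apart in newGene_461, at 12 and 58.1 CPM at DAP20, and 4.27-fold apart in newGene_4713, at 11.3 and 48.4 CPM at DAP5. For newGene_2300, newGene_3712 and newGene_4713 the stage of the highest mean rests on 1 library. For newGene_461 the lower DAP20 library was barely above the mean of DAP30, at 11.9 CPM, and below DAP30 replicate 2, at 19.8 CPM.

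**Figure D4:**
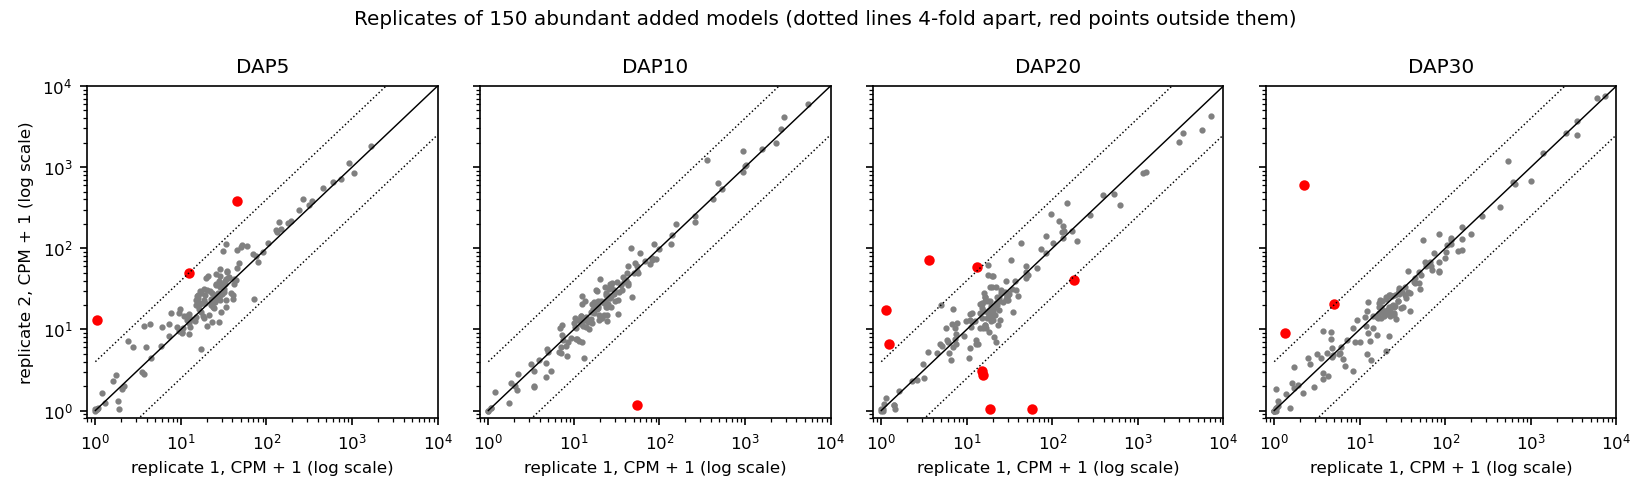
Each panel plots replicate 2 against replicate 1 for the 150 members at one stage, as CPM + 1 on log scales, with a solid line of equality, dotted lines at a 4-fold distance and red points outside them. Most points follow the line, and 9 of the red points lie in the DAP20 panel, against 3, 1 and 3 at DAP5, DAP10 and DAP30. Annotated genes of at least the members' level, not drawn, were also most often 4-fold apart at DAP20.

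Ranking on 1 set of libraries and reading the other gives the stability of the list. When the added models were ranked on the replicate 1 libraries alone, 128 of the top 150 were also in the top 150 of the replicate 2 libraries, and 113 had the same peak stage there (75.3%). Ranked on replicate 2 and read in replicate 1, 112 had the same peak stage (74.7%). In the first of these readings the peak was shared by 40 of 48 models highest at DAP5 and 39 of 55 highest at DAP30, with 21 of 28 for DAP10 and 13 of 19 for DAP20. In the second it was shared by 38 of 50 for DAP5, 22 of 30 for DAP10, 16 of 31 for DAP20 and 36 of 39 for DAP30. A peak at DAP20 was thus the least often shared in both readings. The same shares for annotated genes are not given here.

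Length was not part of the ranking. The deposited length had a median of 2175 bases over the members (quartiles 1240 and 3492), 1068 over the other 2062 added models (quartiles 670.2 and 1818) and 2265 over annotated genes of at least the members' level (quartiles 1568 and 3353). The members ran from 260 to 11084 bases, and 7 of them were below 500 bases. The 10 leading members were shorter, with a median of 1238 bases, while members highest at DAP5 had a median of 3026 and those highest at DAP10 one of 1343. A longer model collects more counts at the same abundance, so a ranking by CPM favours long models. A ranking per kilobase shared 103 of the 150.

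Low counts of added models need care, because the value 1 was more frequent among them than 0 or 2. Over the 8 libraries, the 2212 added models held 4104 values of exactly 1, against 2121 values of 0 and 771 of 2. The 38306 annotated genes held 13197 values of 1, against 74016 of 0 and 6578 of 2. The number of ones was 5.32 times that of twos in added models and 2.01 times in annotated genes, and the zeros were 0.517 and 5.61 times the ones. A value of 1 in all 8 libraries was found for 42 added models. Among the members, 27 values were 1, 20 were 0 and 7 were 2, and 19 members had a 0 or 1 in some library. No ratio is therefore given for members with such a value, among them newGene_5396, newGene_1480, newGene_2630 and newGene_2300.

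**Figure D5:**
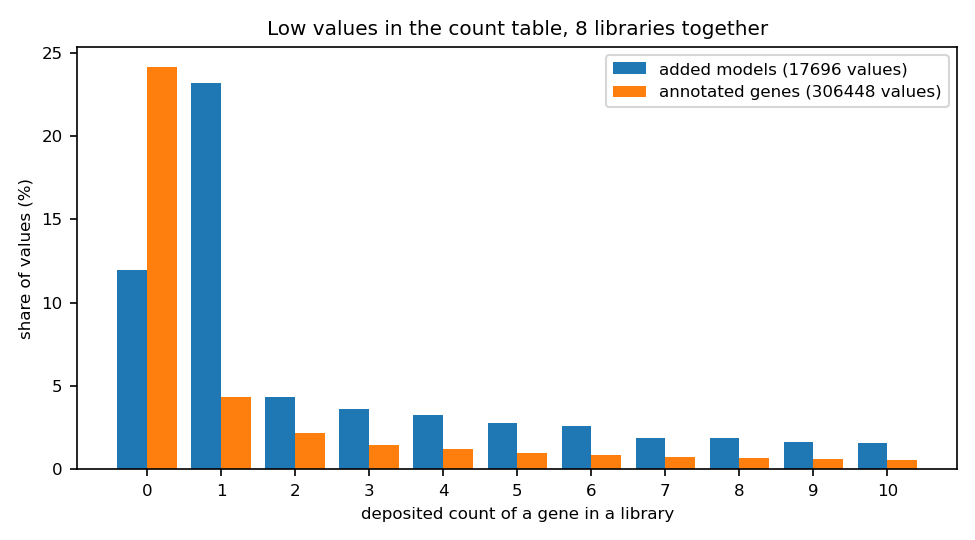
The bars give the percentage of deposited values that equal 0 to 10, for added models and for annotated genes, over all 8 libraries. In added models 23.2% of the values are exactly 1, more than are 0, while in annotated genes 4.31% are 1 and the bars fall from 0 on.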

How the data were processed

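RNA sequencing libraries of seeds at 4 stages, 2 per stage, were analysed. The deposited table gives raw counts as whole numbers, 1 column for each library, and a gene length that it does not define. Per the labels' protocols, TRIzol was used for the RNA and a NEBNext Ultra kit for the libraries. For the aligner, the counter, the genome build, the use of strand and the making of added models, nothing is stated in the sources used here. Reads that added models share with overlapping genes or near copies could thus not be told apart. The library totals lie between 12951493 and 27691831 counts. No row lacked a gene ID.

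Columns were matched to samples by the library code in the descriptions. Counts were tested in R 4.3.3 with edgeR 4.0.16 (filterByExpr at its minimum count of 10 and total of 15, TMM, quasi-likelihood fit of all 8 libraries with stage as the only term), which kept 28749 genes, 1295 of them added models. The test was also run on simulated counts in which, unlike in these data, only a small part of the genes changed, and no result rests on that run. DESeq2 1.42.0 served as an alternative. Other values were computed in Python 3.11.15, and levels are CPM by library totals unless TMM is named. At these depths the 95% Wilson interval of a library's share was narrow (1.303% to 1.312% for the lowest, 3.518% to 3.536% for the highest) and covers counting error only.

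The members and the lists were chosen with earlier results of these data known. Named models are the 20 with the highest stage mean, the 4 highest for each peak stage and per kilobase, the 4 steadiest, the 4 with the widest replicate ratio at the peak, the 4 largest rises and falls from DAP5 to DAP30 with 1 CPM added, and those at the limit. Models named for likeness, for consecutive numbers or beside a count were chosen after their values were seen.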

Additional observations from a re-analysis of the deposited data

How the results depend on the processing

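The count of added models and their calls are limited by 2 libraries per stage and by an uncertain meaning of the value 1. With every library kept, 71 recomputed values stayed on their side of the threshold or within 1.5 times the value reported (for shares, within the spread between replicates). A further 9 moved, 1 became weaker and 1 stronger, as given below. Direction did not enter, so results whose direction turned under another scaling are among the 71. Without the 5 most abundant added models, an alternative chosen after seeing the data, the permutation p was 0.0571 for the share of counts and 0.0190 for the effective number. Those 5 were picked on the levels tested, so these p-values support nothing. The number of added models at 1 CPM or more ran from high to low over the stages under library totals and from low to high under TMM. Ranked by TMM CPM, 22 members were highest at DAP5. Ranked by the mean over 8 libraries, 1 was restricted to a stage. The members held 89.1% of the added-model counts as a mean over stages, against 87.3% ranked per kilobase, 86.4% for the top 100 and 90.9% for the top 200. Within the top 100, fewer by construction, 18 were highest at DAP10, 14 at DAP20, 26 were broad and 3 restricted.

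With each library left out in turn, members called ran from 121 to 136 across stages and, between neighbouring stages in order, from 30 to 76, from 54 to 83 and from 26 to 51, with 110 to 123 for DAP30 against DAP5, where a stage left with 1 library is assumed to vary like the others. The permutation p ran from 0.00952 to 0.0762 for the share, 0.0286 to 0.0857 for models at 1 CPM and 0.0190 to 0.114 for the effective number. Members highest at DAP5 ran from 45 to 53, at DAP10 from 27 to 33, at DAP20 from 19 to 32 and at DAP30 from 44 to 56, broad ones from 41 to 46, restricted ones from 5 to 6, and the members' share from 88.8% to 89.6%. Causes were not tested.

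Under library totals the share of called members that were higher was 46.2% in place of 68.9% from DAP5 to DAP10, 48.0% in place of 63.9% from DAP10 to DAP20, and 52.7% in place of 66.9% from DAP5 to DAP30. DESeq2 called 135 members across stages, 73, 84 and 58 between neighbouring stages and 121 for DAP30 against DAP5. With values of 1 in added models set to 0, chosen after seeing the data, the counts in the same order were 128, 59, 84, 46 and 118. With the replicate block they were 126, 59, 80, 45 and 120. Nothing in the labels pairs the libraries, and deviations of same-numbered libraries correlated at 0.001 to 0.116 over 28749 genes, above 0 for every pair of stages but over 0.1 for 1 pair. The share of all genes called is given here for the main fit only. For the alternatives, and with a library left out, the member counts have no such share beside them, and nothing about the members is read from them.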

Other observations

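A few less abundant members were present mainly at 1 stage. Besides newGene_3979 and newGene_2300, 3 members had every other stage mean below 1/10 of the highest. They were chosen for this after their values were seen. The DAP5 libraries of newGene_4137, of 574 bases, held 662 and 971 counts, against 13 and 15 at DAP10 and none at DAP20 or DAP30. For newGene_1326, of 1676 bases, the counts were 610 and 496 at DAP5 and between 2 and 9 in every later library. For newGene_2199, of 2748 bases, no count was found at DAP5 or DAP10, against 518 and 233 at DAP20, with 8 and 10 left at DAP30.

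The order of the replicates was not constant in newGene_5590, of 1791 bases, also picked after its values were seen. Replicate 2 was higher at DAP5, DAP10 and DAP30, and replicate 1 at DAP20. It had 0.0377 and 12.1 CPM at DAP5 and 42.2 and 59.8 at DAP10, followed by 17.9 and 0.0513 at DAP20 and 53.2 and 127 at DAP30. The lowest value of both pairs was 1 count, in replicate 1 at DAP5 and in replicate 2 at DAP20.

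A value of 1 in 7 or more libraries was found for 116 of the 2212 added models and for 53 of the 38306 annotated genes. Whether the value 1 stands for a read in the added models was not tested.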
